A study of Mus musculus with 6 samples.

Results

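The 10 genes described here are the xenobiotic receptors CAR (Nr1i3) and PXR (Nr1i2), the P450 reductase gene Por and 7 cytochrome P450 genes known as their targets, namely Cyp2b9, Cyp2b10, Cyp2b13, Cyp2c29, Cyp2c37, Cyp2c55 and Cyp3a11. They were taken by name from the 47729 genes of the count files, with earlier results of these data known. The RNA came from livers of C57BL/6 mice fed for 17 days on a diet containing 0.1% DDC, which blocks heme synthesis and damages bile ducts. The knockdown group (n = 3 libraries) carries the genotype label ATOH8 knockdown and is named shAtoh8 in the design text, and the control group (n = 3) carries the genotype label WT and is named shNC. All 6 libraries come from DDC-fed mice, so no comparison with a normal diet was possible. Age, sex, the way the short hairpins were delivered and whether replicates were separate animals are not stated in the labels, so p-values reflect the spread among these libraries alone, part of which may be technical.

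CAR and PXR are nuclear receptors of the hepatocyte that sense drugs, bile acids and other foreign or toxic compounds. Each pairs with the retinoid X receptor RXR and binds repeats of a short half-site near genes of detoxification. CAR waits in the cytoplasm and moves to the nucleus when activated, Cyp2b10 being its classic mouse target, whereas Cyp3a11 is the classic mouse target of PXR. The P450 enzymes these genes encode hold a heme group and draw their electrons from the reductase encoded by Por. Several of these genes are most active in hepatocytes near the central vein.

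Gene reads came to 31912058 to 37969644 per library. Levels are given as CPM, the reads of a gene scaled to a common library size by TMM, and a gene was called when the edgeR quasi-likelihood test gave a Benjamini-Hochberg adjusted p under 0.05 over all 13767 genes tested. Atoh8, the targeted gene, stood at 10.2, 9.83 and 5.64 CPM in knockdown replicates 1 to 3, against 63.8, 16.8 and 16.4 CPM in control replicates 1 to 3 (log2 fold change -1.92, SE 0.58, edgeR adjusted p = 0.197). Of all libraries, control replicate 1 lay farthest from its own group on the first principal component, which held 48.2% of the variance, so the tests of the 10 genes are also given without it. Hepatocyte markers were abundant in every library, with 10 genes summing to between 108281 and 123329 CPM in knockdown livers and between 115819 and 144019 CPM in control livers. The cell type is labelled hepatocyte and the source liver, and the markers of other liver cells given at the end were present as well.

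Of the 10 genes, 1 was called in the knockdown livers, the CAR gene Nr1i3, which fell. Cyp2b13, with 1 to 32 reads per library, did not pass the filter on low counts, and 9 were tested. Among all genes 0.123% were called lower and 0.741% higher. No gene of the 10 was called higher by edgeR, and 0 were higher and 6 lower at an unadjusted p under 0.05, where 9.14% of all tested genes were higher and 5.40% lower. By limma on log2(FPKM + 1) the 1 gene called was again Nr1i3, where 0.220% of genes were called lower. DESeq2 called 4 of the 10 lower (Nr1i3, Por, Cyp2b10 and Cyp2c37) and 0 higher, where it called 1.40% of all genes lower and 3.73% higher. Of the 9 tested, 8 had negative log2 fold changes and Cyp2c55 a positive one, with a median of -1.62 against -0.05 for all tested genes. On the TMM-scaled CPM, every knockdown library lay below every control library in 6 of the 9, a pattern that 10% of all tested genes showed. In 0 of the 9 every knockdown library lay above, which 13% showed. Without control replicate 1, edgeR called 7 of the 9 lower and 0 higher, where 16.1% of 14222 genes were called lower and 16.5% higher. In bulk RNA, fewer cells of a type and less RNA per cell cannot be told apart.

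**Figure D1:**
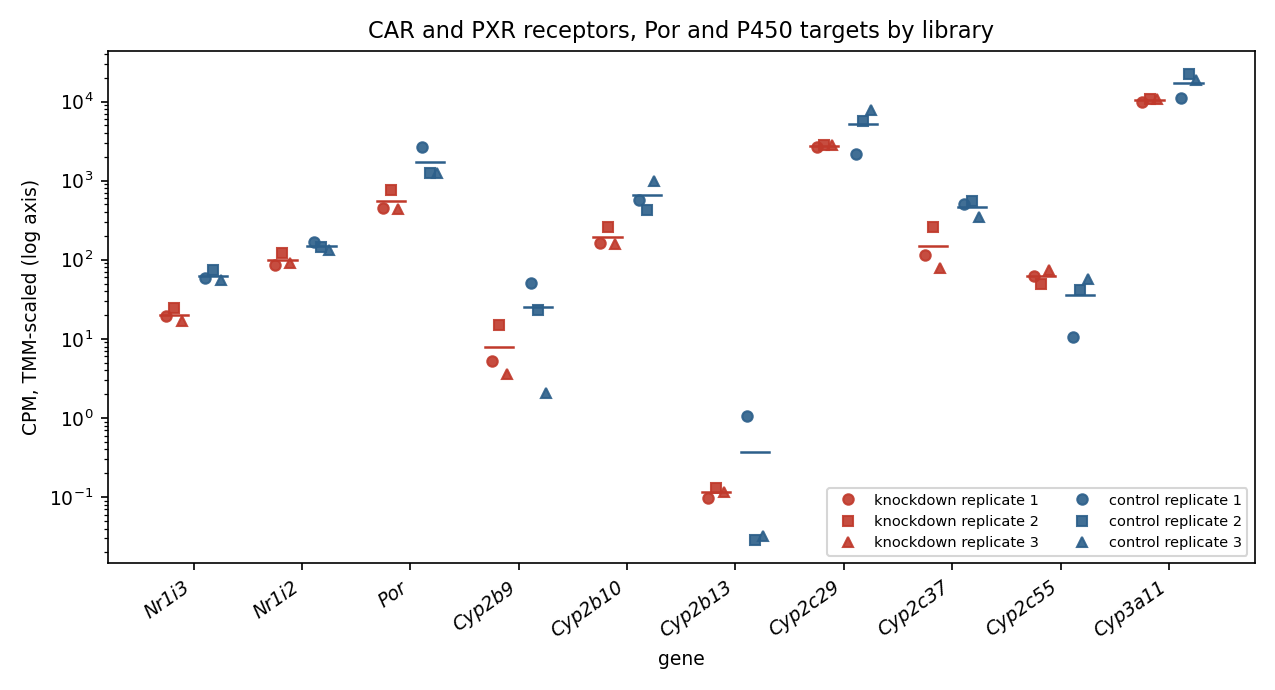
Levels of the 10 genes in each library, as TMM-scaled CPM on a log axis, with knockdown libraries in red and control libraries in blue. Points are libraries and horizontal lines are group means. The groups do not overlap for Nr1i3, Nr1i2, Por, Cyp2b10, Cyp2c37 and Cyp3a11, while control replicate 1 lies far from the other controls for Cyp2b13, Cyp2c55 and Cyp2c29.

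Both receptor genes had lower levels in every knockdown library than in any control, and the difference passed the test for Nr1i3. Nr1i3 (ENSMUSG00000005677, GRCm38 chromosome 1, 171213970 to 171220701, plus strand) stood at 19.2, 24.7 and 16.7 CPM in knockdown replicates 1 to 3, against 58.2, 73.6 and 55.0 CPM in control replicates 1 to 3. Every knockdown library lay below every control, and control replicate 1 lay between the other controls. The fall of Nr1i3 amounted to a log2 fold change of -1.62 with an SE of 0.23 (edgeR adjusted p = 0.0348), and its knockdown mean was 0.324 of the control mean. With control replicate 1 left out, the log2 fold change was -1.66 with an SE of 0.18 (edgeR adjusted p = 0.000283). Leaving out any of the other 5 libraries ended the call, with edgeR adjusted p between 0.0772 and 0.238, while the log2 fold change stayed between -1.74 and -1.47. Those fits called almost no gene lower, with 1 of all tested genes without control replicate 3 and 0 in each of the others.

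Nr1i3 overlaps a neighbouring gene. In GENCODE M21, 74.9% of its 4414 exon bases also lie in exons of Tomm40l on the opposite strand. Reads that fall on exons of both genes can be set aside as ambiguous when strand is not used, and the labels do not say whether it was. Tomm40l encodes a protein related to a mitochondrial import channel. It stood at 5.84, 6.32 and 5.69 CPM in knockdown replicates 1 to 3, against 6.66, 13.2 and 8.84 CPM in control replicates 1 to 3 (log2 fold change -0.69, SE 0.29, edgeR adjusted p = 0.343). The deposited FPKM values, which divide by transcript length, gave Nr1i3 47.7, 62.5 and 40.3 in knockdown livers, against 163, 207 and 145 in control livers. Knockdown libraries of Nr1i3 lay below controls on the FPKM scale too. Tomm40l, in contrast, turned direction with the scale, at 10.04, 11.5 and 9.73 FPKM in knockdown livers, against 5.98, 6.15 and 7.03 FPKM in control livers, with no overlap. Nr1i3 reached 0.355 to 0.415 CPM per unit of FPKM over the 6 libraries, where Nr1i2, with no such overlap, reached 2.75 to 2.90, so the height of Nr1i3 relative to other genes depends on the scale. Tomm40l was named after its values were seen.

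Nr1i2 (ENSMUSG00000022809, GRCm38 chromosome 16, 38248323 to 38294824, minus strand) was not called. It stood at 85.5, 120 and 91.6 CPM in knockdown replicates 1 to 3, against 166, 146 and 131 CPM in control replicates 1 to 3. The groups did not overlap, but the gap between the nearest libraries was small. Its log2 fold change was -0.58 (SE 0.20, edgeR adjusted p = 0.259), and without control replicate 1 it was -0.47 (SE 0.16, edgeR adjusted p = 0.0485).

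Within each library the CAR gene was lower relative to the PXR gene in knockdown than in control livers. On the CPM scale the log2 ratio of Nr1i3 to Nr1i2 was -2.15, -2.28 and -2.46 in knockdown replicates 1 to 3, against -1.51, -0.99 and -1.25 in control replicates 1 to 3. The knockdown mean was -2.30 ± 0.15 and the control mean -1.25 ± 0.26 (SD, n = 3 each), a difference of -1.05. The exact two-sided permutation test gave p = 0.1, the smallest p that 20 arrangements of 3 against 3 libraries allow. Per length, on the FPKM scale, Nr1i3 stood 1.61, 1.44 and 1.21 times as high as Nr1i2 in knockdown livers, against 2.74, 4.04 and 3.20 times in control livers. The order of the receptors thus turns with the scale, whereas the direction of the difference between the groups does not.

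**Figure D2:**
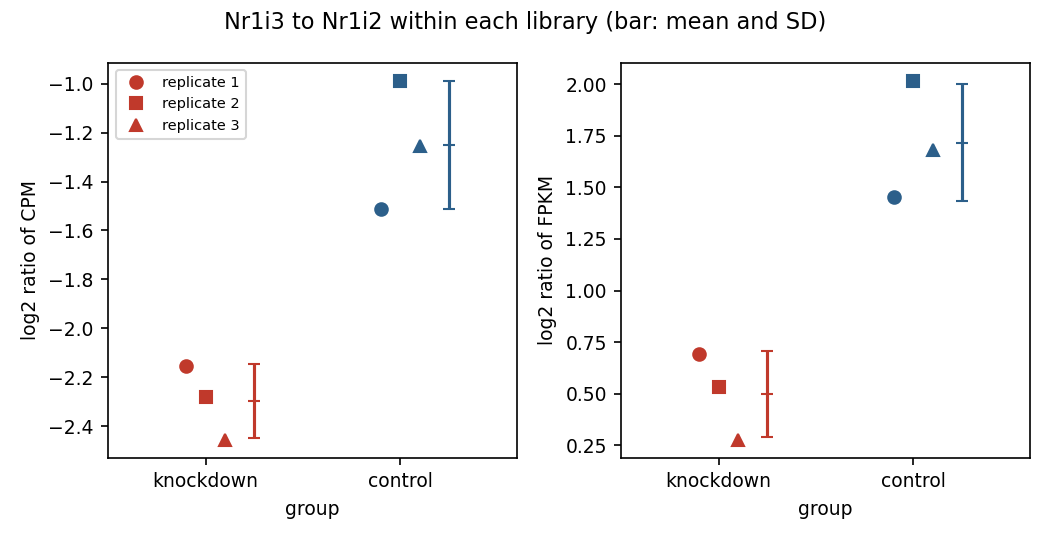
The log2 ratio of Nr1i3 to Nr1i2 in each library, from CPM on the left and from FPKM on the right, with knockdown left of control in each panel. Points are libraries, and bars are the group mean and SD (n = 3). All knockdown ratios lie below all control ratios on both scales, between -2.46 and -2.15 against -1.51 to -0.99 for CPM.

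The promoter window of Nr1i3 is shown because it was the gene among the 10 that was called. The windows hold 250 bases before and 50 bases after the RefSeq start site (GRCm38.p6), and all 10 genes have one. They were searched on both strands for the half-sites AGGTCA and AGTTCA, of the kind that nuclear receptors bind. At least one of these occurs in 27.7% of all 32851 windows. Nr1i3 (chr1:171213720-171214019, plus strand) holds neither, nor do Nr1i2, Por, Cyp2b10, Cyp2c37 and Cyp2c55. The known phenobarbital-responsive enhancer of Cyp2b10 lies farther upstream than such a window reaches. The sequence follows from 5′ to 3′.
Nr1i3: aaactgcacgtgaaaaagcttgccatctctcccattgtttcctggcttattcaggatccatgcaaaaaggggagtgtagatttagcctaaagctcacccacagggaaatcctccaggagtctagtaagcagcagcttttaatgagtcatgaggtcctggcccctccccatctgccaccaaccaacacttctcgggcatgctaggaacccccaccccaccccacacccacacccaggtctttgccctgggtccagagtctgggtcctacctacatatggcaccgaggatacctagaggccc

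By a measure of likeness, the 5 genes of at least 5 CPM whose log2 CPM followed Nr1i3 most closely over the 6 libraries were Mpc1, Ddit4, Rpl4, Hsd11b1 and Pon1, with Pearson r from 0.991 to 0.998 among 8965 genes compared. Mpc1 encodes a subunit of the mitochondrial pyruvate carrier, and Pon1 a paraoxonase secreted into blood. Ddit4, an inhibitor of mTOR signalling, was called lower (log2 fold change -1.48, edgeR adjusted p = 0.0384), at 8.75, 10.7 and 7.23 CPM in knockdown livers, against 24.1, 27.1 and 23.4 CPM in control livers. Hsd11b1, which regenerates active glucocorticoid, missed the threshold (log2 fold change -1.05, edgeR adjusted p = 0.0560). All these values share 6 libraries, their depth and their group difference, so the correlations are a description.

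Por (ENSMUSG00000005514, GRCm38 chromosome 5, 135670033 to 135735326, plus strand), which passes electrons from NADPH to every microsomal P450, reached 452, 760.0 and 435 CPM across knockdown replicates 1 to 3. The controls had 2628, 1239 and 1249.8 CPM in the same order. Every knockdown library lay below every control, and control replicate 1 was the highest of all, at 2.11 times the mean of the other controls. The log2 fold change was -1.64 (SE 0.39) and did not pass by edgeR (adjusted p = 0.124), whereas it passed by DESeq2 (adjusted p = 0.00253). Leaving out control replicate 1 gave a smaller log2 fold change of -1.17 (SE 0.23) that passed as lower (edgeR adjusted p = 0.00436).

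Of the 11 genes of P450 electron transfer and heme supply, a list that includes Por, 1 was called lower and 0 higher, with a median log2 fold change of -0.12 against -0.05 for all tested genes. The one called was Alas1, which encodes the enzyme that sets the pace of heme production and is a known CAR and PXR target. It stood at 559, 911 and 714 CPM in knockdown livers, against 2298, 2655 and 3641 CPM in control livers, and its log2 fold change was -1.98 with an SE of 0.29 (edgeR adjusted p = 0.0368). Knockdown and control libraries did not overlap. Left without control replicate 1, the list held 5 genes called lower and 1 called higher, where 16.1% of all genes were called lower and 16.5% higher. At an unadjusted p under 0.05 with all libraries, 0 were higher and 3 lower, against 9.14% and 5.4% of all tested genes.

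The Cyp2b genes lie together on chromosome 7. Cyp2b10 (ENSMUSG00000030483, GRCm38 25897620 to 25926624, plus strand) stood at 164, 260 and 157 CPM in knockdown replicates 1 to 3, against 566, 426 and 985 CPM in control replicates 1 to 3. The groups did not overlap, and control replicate 3 was the highest library. Its log2 fold change was -1.77 (SE 0.37), the most negative of the 9 tested, and it missed the threshold (edgeR adjusted p = 0.0845). It passed as lower with control replicate 1 left out (edgeR adjusted p = 0.00225, log2 fold change -1.85, SE 0.32) and, with all libraries, by DESeq2 (adjusted p = 0.000540).

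Cyp2b9 (ENSMUSG00000040660, GRCm38 chromosome 7, 26173411 to 26210661, plus strand) and Cyp2b13 (ENSMUSG00000040583, GRCm38 chromosome 7, 26061497 to 26096197, plus strand) are known in mouse liver as genes of females. Cyp2b9 stood at 5.31, 14.8 and 3.64 CPM in knockdown replicates 1 to 3, against 51.5, 23.3 and 2.05 CPM in control replicates 1 to 3. The groups overlapped, since control replicate 3 was the lowest library and control replicate 1 the highest. Its log2 fold change was -1.69 with an SE of 1.00 (edgeR adjusted p = 0.504), and -0.68 (SE 0.77, edgeR adjusted p = 0.533) without control replicate 1. Cyp2b13 had 4, 5 and 5 reads in knockdown replicates 1 to 3, against 32, 1 and 1 reads in control replicates 1 to 3. Nearly all control reads of Cyp2b13 thus came from control replicate 1.

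Cyp2b9 and Cyp2b13 have promoter windows that are 99.3% identical, and both differ from Cyp2b10, with 72.9% identity each. The 3 windows are shown side by side because these genes are related and their levels differ. The windows are chr7:25897408-25897707, chr7:26173159-26173458 and chr7:26061245-26061544, all on the plus strand, and capitals mark the half-site AGGTCA, which begins 138 bases before the start site in Cyp2b9 and Cyp2b13. The half-site AGGTCA on its own occurs in 16.3% of all windows. From Cyp2b9 to Cyp2b13 the windows differ by T48C and C104T, with positions counted from 1 at the 5′ end of the window.
Cyp2b10: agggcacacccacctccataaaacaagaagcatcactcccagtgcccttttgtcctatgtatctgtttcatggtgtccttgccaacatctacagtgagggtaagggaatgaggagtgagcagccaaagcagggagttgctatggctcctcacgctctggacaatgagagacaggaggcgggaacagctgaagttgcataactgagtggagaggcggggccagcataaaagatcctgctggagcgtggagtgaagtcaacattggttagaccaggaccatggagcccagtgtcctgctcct
Cyp2b9: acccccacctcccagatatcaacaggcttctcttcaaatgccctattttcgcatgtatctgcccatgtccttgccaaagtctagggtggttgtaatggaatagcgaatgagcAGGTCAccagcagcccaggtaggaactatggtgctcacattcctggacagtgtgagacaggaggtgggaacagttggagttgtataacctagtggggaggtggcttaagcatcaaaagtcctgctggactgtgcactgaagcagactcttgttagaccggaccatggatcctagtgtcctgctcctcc
Cyp2b13: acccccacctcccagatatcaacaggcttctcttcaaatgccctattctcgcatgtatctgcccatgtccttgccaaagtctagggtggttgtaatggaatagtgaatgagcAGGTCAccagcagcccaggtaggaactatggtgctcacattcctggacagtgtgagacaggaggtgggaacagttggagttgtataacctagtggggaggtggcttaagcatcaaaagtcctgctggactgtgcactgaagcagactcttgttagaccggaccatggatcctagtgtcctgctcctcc

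Reads can be split between genes that share sequence. Of the 50-base words in the GENCODE transcripts of each gene, 8.70% of those of Cyp2b10, 11.2% of those of Cyp2b9 and 27.3% of those of Cyp2b13 also occur in another gene. Cyp2b9 and Cyp2b10 shared most words with Cyp2b13, whereas Cyp2b13 shared most with Gm45225, which is not in the sum that follows. Cyp2b10 made up 96.8%, 94.5% and 97.7% of the summed Cyp2b level in knockdown replicates 1 to 3, against 91.5%, 94.8% and 99.8% in control replicates 1 to 3. The summed level was 170, 275 and 161 CPM in knockdown livers, against 618, 449 and 987 CPM in control livers. Fitted as 1 gene, the sum gave nearly the value of Cyp2b10 alone (log2 fold change -1.76, SE 0.36, edgeR adjusted p = 0.0811). The sum passed with control replicate 1 left out (log2 fold change -1.82, SE 0.31, edgeR adjusted p = 0.00223).

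Values that track sex were set beside Cyp2b9 and Cyp2b13. Xist was at most 0.097 CPM in every library, and the Y-linked genes were present in all. Ddx3y stood at 28.05, 34.9 and 38.4 CPM in knockdown livers, against 9.67, 92.6 and 110 CPM in control livers (edgeR adjusted p = 0.568), and Uty at 7.49, 8.57 and 12.2 CPM, against 2.48, 17.9 and 22.9 CPM (edgeR adjusted p = 0.730). Control replicate 1 was lowest for both. The 17 female-biased genes, a list that includes Cyp2b9 and Cyp2b13, summed to 246, 277 and 259 CPM in knockdown livers, against 942, 570 and 314 CPM in control livers, with 1 of 11 tested members called higher and 0 called lower by edgeR. Negative log2 fold changes were found for 8 of the 11, with a median of -0.68. At an unadjusted p under 0.05, 4 were lower and 1 higher, against 5.4% and 9.14% of all tested genes. By edgeR without control replicate 1, 4 of the 11 were called lower and 1 higher, where 16.1% of all genes were called lower and 16.5% higher. The one called was Prom1 (log2 fold change 2.95, SE 0.42, edgeR adjusted p = 0.0344), which is also a marker of bile duct and progenitor cells. The 16 male-biased genes summed to 6296, 5398 and 5663 CPM in knockdown livers, against 1831, 3917 and 4724 CPM in control livers. A large part of most of these sums was 1 gene, Mup20, named after its values were seen. Mup20 stood at 3824, 2779 and 3538 CPM in knockdown livers, against 228, 2242 and 2747 CPM in control livers. It was not called (log2 fold change 0.96, SE 0.74, edgeR adjusted p = 0.617). Of 15 tested, 4 were called higher and 4 lower by edgeR without control replicate 1, against 16.5% and 16.1% of all genes. In the fit with all libraries, log2 fold changes were positive for 10 of the 15 and negative for 5, with a median of 0.20. At an unadjusted p under 0.05, 4 were higher and 1 lower, against 9.14% and 5.4% of all tested genes. With all libraries 2 were called higher and 0 lower, against 0.741% and 0.123% of all tested genes. The 2 were Selenbp2 (edgeR adjusted p = 0.0280, log2 fold change 1.79, SE 0.22) and the fatty acid elongase gene Elovl3 (log2 fold change 2.87, SE 0.44, edgeR adjusted p = 0.0402). The part of these genes in the Cyp2b9 and Cyp2b13 values was not tested.

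The likeness measure for Cyp2b10 named Eci1, Pole4, Slc35a2, Coq5 and Lamtor2, with Pearson r from 0.988 to 0.999 over the 6 libraries. Eci1 encodes an enzyme of fatty acid oxidation in mitochondria. It stood at 52.0, 55.7 and 51.2 CPM in knockdown livers, against 63.8, 61.2 and 70.9 CPM in control livers. None of the 5 was called by edgeR in the fit with all libraries, their log2 fold changes lying between -0.54 and -0.30. A close correlation thus went with a much smaller difference than that of Cyp2b10, and it is a description of these 6 libraries.

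The Cyp2c genes lie on chromosome 19 and differed in direction and size. Cyp2c37 (ENSMUSG00000042248, GRCm38 39992424 to 40012243, plus strand), a CAR target whose product oxidises fatty acids, stood at 115, 258 and 77.7 CPM in knockdown replicates 1 to 3, against 505, 558 and 345 CPM in control replicates 1 to 3. The groups did not overlap, but knockdown replicate 2 lay well above the other knockdown libraries. Its log2 fold change was -1.64 (SE 0.45, edgeR adjusted p = 0.162), and it passed as lower by DESeq2 (adjusted p = 0.0123) and by edgeR without control replicate 1 (log2 fold change -1.58, SE 0.40, edgeR adjusted p = 0.0143).

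Of the 50-base words of Cyp2c37, 30.1% also occur in another gene, most often in Cyp2c50. That neighbour stood at 617, 887 and 438 CPM in knockdown livers, against 941, 1180.2 and 848 CPM in control livers (log2 fold change -0.61 with an SE of 0.29, edgeR adjusted p = 0.401). The third of these related genes, Cyp2c54, stood at 144, 259 and 69.4 CPM in knockdown livers, against 262, 418 and 198 CPM in control livers (log2 fold change -0.89, SE 0.49, edgeR adjusted p = 0.465). In all 3 genes knockdown replicate 2 was the highest knockdown library. Cyp2c50 and Cyp2c54 were named for their shared sequence after the values were seen.

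Cyp2c29 (ENSMUSG00000003053, GRCm38 chromosome 19, 39269405 to 39330713, plus strand), one of the most abundant P450 transcripts here, reached 2644, 2824 and 2830.2 CPM across knockdown replicates 1 to 3. The controls had 2161, 5687 and 7699 CPM in the same order. The knockdown libraries were close to each other, and control replicate 1 lay below all of them while the other controls lay above. The log2 fold change was -0.91 (SE 0.43, edgeR adjusted p = 0.396). When control replicate 1 was left out it was -1.26 (SE 0.18) and passed as lower (edgeR adjusted p = 0.00101).

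Cyp2c55 (ENSMUSG00000025002, GRCm38 chromosome 19, 39007019 to 39042693, plus strand), a gene that CAR and PXR ligands are known to induce in mice, was the exception in direction. It stood at 61.9, 49.3 and 73.2 CPM in knockdown replicates 1 to 3, against 10.6, 41.9 and 56.5 CPM in control replicates 1 to 3. The groups overlapped, and the positive log2 fold change of 0.76 (SE 0.53, edgeR adjusted p = 0.584) rested in part on the low value of control replicate 1. Without that library the log2 fold change was 0.34 (SE 0.19, edgeR adjusted p = 0.202).

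Cyp3a11 (ENSMUSG00000056035, GRCm38 chromosome 5, 145854426 to 145879964, minus strand) had the highest level of the 10 genes. It stood at 9829, 10733 and 10724 CPM in knockdown replicates 1 to 3, against 11001 (control replicate 1), 22234 (control replicate 2) and 18679 CPM (control replicate 3). The groups did not overlap in TMM-scaled CPM, although control replicate 1 lay just above the knockdown libraries. Its log2 fold change was -0.73 (SE 0.31, edgeR adjusted p = 0.342), and it passed as lower without control replicate 1 (log2 fold change -0.96, SE 0.19, edgeR adjusted p = 0.00420). Cyp3a11 alone took 1.08%, 1.11% and 1.21% of gene reads in knockdown livers, against 0.937%, 2.10% and 1.80% in control livers. In these unscaled shares the groups overlapped, since control replicate 1 lay below every knockdown library. The TMM factors ran from 1.04 to 1.13 in knockdown libraries and from 0.852 to 0.965 in control libraries, so the separation of Cyp3a11 depends on the scaling.

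The Cyp3a11 window (chr5:145879805-145880104, minus strand) is shown because, of the 10 windows, it holds the most half-sites. AGGTCA begins 162 bases before the start site. AGTTCA lies on the opposite strand and appears along the strand of the gene as TGAACT, which begins 142 bases before the start site. Both are in capitals below. The pair does not form a direct or everted repeat of the spacings searched (direct repeats 3 to 5 bases apart, everted repeats 6 or 8 bases apart), and 33 of the 32851 windows do. Cyp2c29, Cyp2b9 and Cyp2b13 hold 1 half-site each. The sequence is given along the strand of the gene, and TGAACT is AGTTCA read on the other strand.
Cyp3a11: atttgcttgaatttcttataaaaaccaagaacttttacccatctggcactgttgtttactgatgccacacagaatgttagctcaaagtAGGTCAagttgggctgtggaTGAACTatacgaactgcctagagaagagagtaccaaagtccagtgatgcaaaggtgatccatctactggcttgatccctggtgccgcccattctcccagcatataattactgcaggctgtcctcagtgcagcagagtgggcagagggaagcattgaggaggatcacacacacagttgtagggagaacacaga

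**Figure D3:**
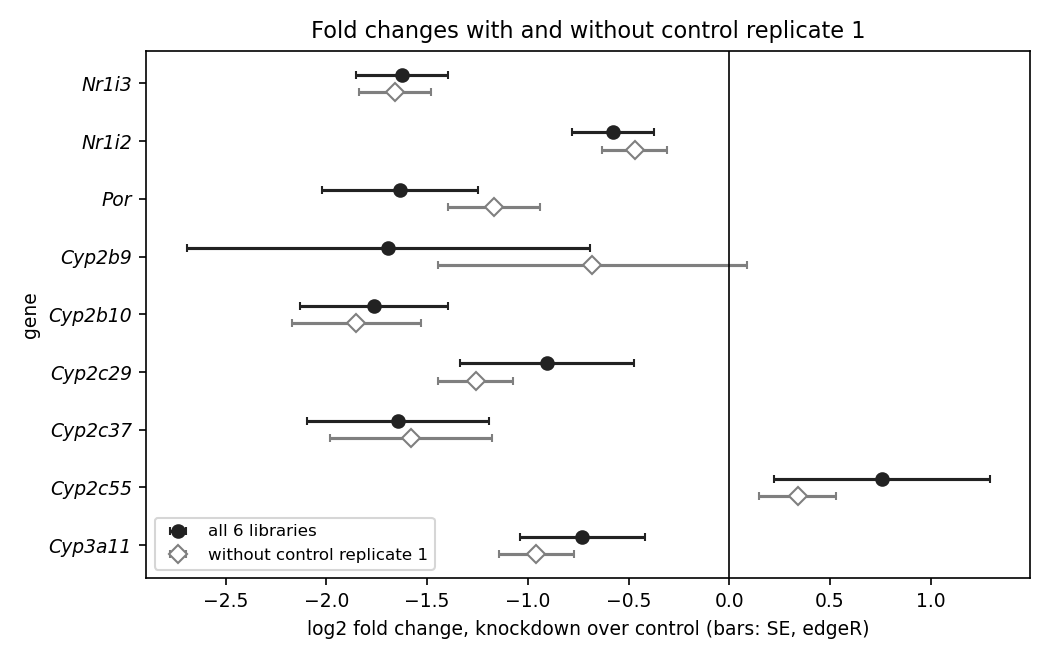
Log2 fold changes, knockdown over control, of the 9 tested genes by edgeR, with all 6 libraries (filled circles) and without control replicate 1 (open diamonds), bars being SE. Nr1i3, Cyp2b10 and Cyp2c37 lie near the same place in both, Por moves from -1.64 with all libraries to -1.17 without control replicate 1, and Cyp2c55 lies above 0 in both.

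Per length, on the FPKM scale, the order of the levels was similar in both groups. In knockdown livers Cyp3a11 averaged 5101 ± 278 FPKM, followed by Cyp2c29 at 1760.4 ± 84.3, Por at 265.1 ± 68.3, Cyp2b10 at 113 ± 33.9 and Cyp2c37 at 95.8 ± 62.6 (SD, n = 3). Nr1i3 at 50.2 ± 11.3, Cyp2c55 at 37.1 ± 5.35 and Nr1i2 at 35.4 ± 7.10 FPKM came next in knockdown livers, above Cyp2b9 at 4.53 ± 3.61 and Cyp2b13 at 0.0811 ± 0.0441 FPKM. Each of the neighbours Cyp2b10, Cyp2c37, Nr1i3, Cyp2c55 and Nr1i2 overlapped the next in its range over the knockdown libraries. In control livers Cyp3a11 averaged 9034 ± 2973, Cyp2c29 3440.4 ± 1829, Por 798 ± 369, Cyp2b10 383 ± 163, Cyp2c37 309 ± 76.9 and Nr1i3 172 ± 32.1 FPKM. Nr1i2 at 51.9 ± 7.15, Cyp2c55 at 23.2 ± 14.96, Cyp2b9 at 14.8 ± 14.5 and Cyp2b13 at 0.283 ± 0.422 FPKM followed in control livers. Among neighbours in controls, Cyp2b10 and Cyp2c37 overlapped in range, as did Cyp2c55 and Cyp2b9.

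The libraries of a group did not vary alike for all genes. Among the knockdown livers replicate 2 was the highest for Nr1i3, Nr1i2, Por, Cyp2b9, Cyp2b10, Cyp2c37 and, by a small margin, Cyp3a11. Knockdown replicate 2 was the lowest of its group for Cyp2c55. For Cyp2b13, knockdown replicates 2 and 3 had 5 reads each and replicate 1 had 4. Among the controls, replicate 1 was the highest for Nr1i2, Por, Cyp2b9 and Cyp2b13 and the lowest for Cyp2c29, Cyp2c55 and Cyp3a11. Relative to the mean of control replicates 2 and 3, control replicate 1 was 4.07 times as high for Cyp2b9 and 0.216 times as high for Cyp2c55. The summed level of 15 pericentral hepatocyte genes was 5312, 8608 and 4953 CPM in knockdown replicates 1 to 3, against 12119, 10794 and 7965 CPM in control replicates 1 to 3. Knockdown replicate 2 was the highest knockdown library for that sum too. A large part of the sum was 1 gene, Cyp2e1, named after its values were seen. Cyp2e1 stood at 2185, 4724 and 1739 CPM in knockdown replicates 1 to 3, against 7392, 6003 and 3101 CPM in control replicates 1 to 3. None of the 15 was called in either direction by edgeR with all libraries, with a median log2 fold change of -0.58. At an unadjusted p under 0.05, 3 were lower and 1 higher, against 5.4% and 9.14% of all tested genes. By edgeR without control replicate 1, 6 were called lower and 2 higher, against shares of 16.1% and 16.5% over all genes. The members with the smallest p were Lgr5, a Wnt target and receptor gene (edgeR adjusted p = 0.203, log2 fold change 0.94, SE 0.29), and the sterol hydroxylase gene Cyp27a1 (log2 fold change -0.86, SE 0.28, edgeR adjusted p = 0.221). The part of the position of hepatocytes in the lobule was not tested.

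A list of 45 other known CAR and PXR target genes held P450s, conjugating enzymes, transporters and other enzymes. Of 42 tested, 3 were called lower and 0 higher, where 0.123% of all genes were called lower. Negative log2 fold changes were found for 36 and positive ones for 6, with a median of -0.45 against -0.05 for all tested genes. At an unadjusted p under 0.05, 12 of the 42 were lower and 1 higher, against 5.40% and 9.14% of all tested genes. By edgeR without control replicate 1, 16 of 43 were called lower and 1 higher, where 16.1% of all genes were called lower and 16.5% higher. The 3 genes called with all libraries were Sult1e1, Alas1 and Tsku.

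Sult1e1, which encodes the estrogen sulfotransferase, stood at 2.04, 2.74 and 2.28 CPM in knockdown livers, against 21.6, 51.4 and 99.7 CPM in control livers. That was a log2 fold change of -4.61 with an SE of 0.57 (edgeR adjusted p = 0.0282). Tsku, which encodes the secreted protein tsukushi and is induced by CAR activators in mouse liver, stood at 204, 144 and 183 CPM in knockdown livers, against 614, 459 and 424 CPM in control livers. The log2 fold change of Tsku was -1.49 with an SE of 0.23 (edgeR adjusted p = 0.0412). For both genes every knockdown library lay below every control. By edgeR no gene of the list was called lower without knockdown replicate 1, 2 or 3 or without control replicate 2. The calls of Sult1e1, Alas1 and Tsku thus ended there, as did all others, since 0 of all tested genes were called lower in each of those fits. Without control replicate 3, 1 gene of the list was called lower, the 1 gene called lower among all tested.

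The other targets of the list did not pass the threshold with all libraries, and those given here were named after their values were seen. Of the 42 tested, every knockdown library lay below every control library in 11 and above in 1. Among all tested genes 10% and 13% did so. Ugt1a1, the gene of bilirubin glucuronidation, stood at 69.4, 80.9 and 60.3 CPM in knockdown livers, against 190, 157 and 134 CPM in control livers (log2 fold change -1.19, edgeR adjusted p = 0.0585). Slco1a4, an uptake transporter of organic anions, stood at 123, 202 and 134 CPM in knockdown livers, against 260, 378 and 264 CPM in control livers (log2 fold change -0.97, edgeR adjusted p = 0.162). Gstm2, a glutathione transferase gene, ran the other way, at 282, 289 and 364 CPM in knockdown livers, against 144, 159 and 243 CPM in control livers (log2 fold change 0.78, edgeR adjusted p = 0.220). For each of these 3 genes the knockdown and control libraries were apart. Among targets with small differences, Aldh1a1 had edgeR adjusted p = 0.940 (log2 fold change -0.08, SE 0.32) and Gstm3 had edgeR adjusted p = 0.884 (log2 fold change -0.14, SE 0.34).

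**Figure D4:**
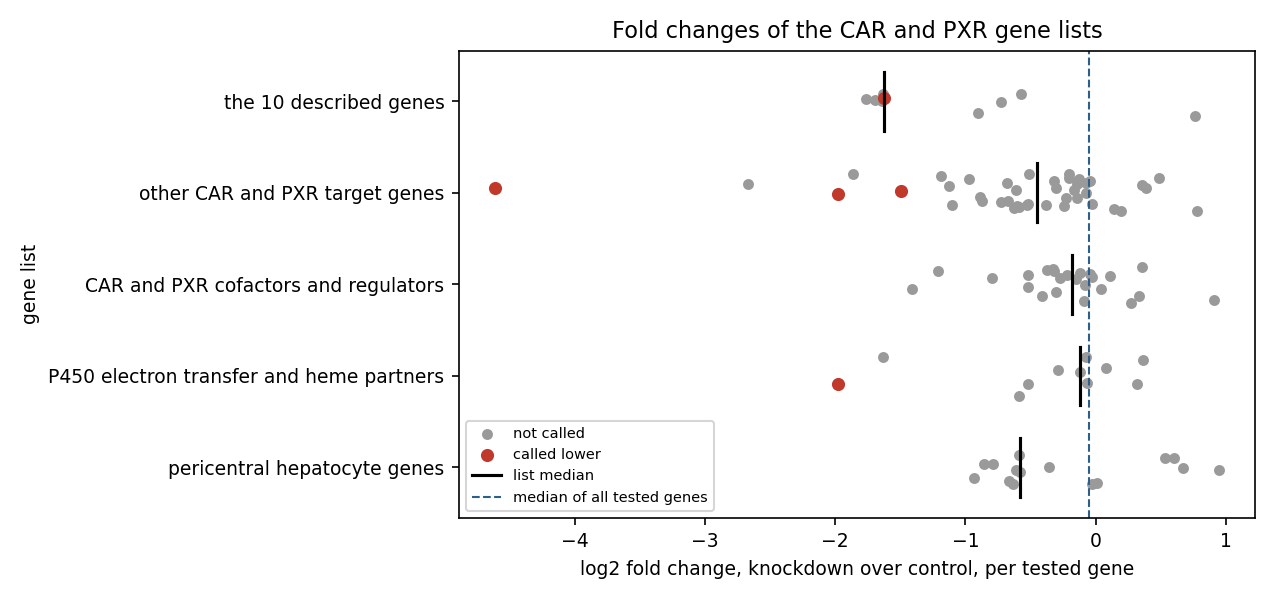
Log2 fold changes, knockdown over control, for every tested gene of 5 lists by edgeR with all 6 libraries. Red points are genes called lower, vertical bars are list medians and the dashed line is the median of all tested genes, -0.05. The medians run from -1.62 for the 10 described genes, of which 9 were tested, to -0.12 for electron transfer and heme partners.

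Among the 24 cofactors and regulators of the receptors, 0 were called in either direction by edgeR with all libraries, with a median log2 fold change of -0.19. At an unadjusted p under 0.05, 1 was higher and 3 lower, against 9.14% and 5.4% of all tested genes. DESeq2 called 1 higher and 1 lower, where it called 3.73% of all genes higher and 1.40% lower. By edgeR without control replicate 1, 2 were called higher and 8 lower, against 16.5% and 16.1% of all genes. The members with the smallest p were Egfr, a growth factor receptor whose signalling is known to hold CAR inactive, and Gadd45b, a stress gene known as a coactivator of CAR in mice. Egfr stood at 178, 233 and 213 CPM in knockdown livers, against 125, 84.4 and 122 CPM in control livers (log2 fold change 0.91, SE 0.22, edgeR adjusted p = 0.133). Gadd45b stood at 5.70, 4.83 and 4.85 CPM in knockdown livers, against 20.6, 14.3 and 6.04 CPM in control livers (log2 fold change -1.41, SE 0.42, edgeR adjusted p = 0.197). The groups did not overlap for either gene. Rxra, the shared partner of both receptors, stood at 351, 423 and 304 CPM in knockdown livers, against 557, 291 and 294 CPM in control livers (edgeR adjusted p = 0.930, log2 fold change -0.08, SE 0.30), and was named outside the rule.

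Markers of other cells were measured in the same libraries. The 12 cholangiocyte markers summed to between 374 and 607 CPM in knockdown livers and between 63.1 and 69.3 CPM in control livers, with Spp1 (edgeR adjusted p = 0.00985, log2 fold change 3.67, SE 0.28) and Prom1 called higher of 6 tested, and Sctr under 0.1 CPM in every library. Most of that sum was Spp1, and without it the markers summed to 68.3, 51.7 and 53.3 CPM in knockdown replicates 1 to 3, against 32.4, 31.5 and 23.7 CPM in control replicates 1 to 3. All 6 tested cholangiocyte markers had positive log2 fold changes. In 4 of them every knockdown library lay above every control library, as in 13% of all tested genes. The duct keratin genes were low. Krt19 lay between 0.0699 and 0.0784 CPM in knockdown livers and between 0 and 0.166 CPM in control livers. Krt7 lay between 0.117 and 0.157 CPM in knockdown livers and between 0.0287 and 0.497 CPM in control livers. Epcam stood at 1.04, 0.523 and 1.35 CPM in knockdown livers, against 0.762, 0.401 and 0.292 CPM in control livers. Krt19, Krt7 and Epcam were named outside the rule. The 14 macrophage markers summed to between 574 and 690 CPM in knockdown livers and between 316 and 662 CPM in control livers, control replicate 1 being the highest control, with 0 of 14 called by edgeR and 5 higher at an unadjusted p under 0.05. All 14 had positive log2 fold changes, and 10 were called higher by edgeR without control replicate 1, where 16.5% of all genes were. Their smallest p were those of Ccr2 and Lyz2 (edgeR adjusted p = 0.177 and 0.259). The 12 stellate cell and fibroblast markers summed to between 356 and 499 CPM in knockdown livers and between 222 and 236 CPM in control livers. Of these Acta2 was called higher (edgeR adjusted p = 0.0282), with 135 reads in knockdown livers and 2 in control livers. All 12 had positive log2 fold changes, 8 were higher at an unadjusted p under 0.05, and 9 were called higher by edgeR without control replicate 1. In that fit 4 of 6 tested cholangiocyte markers and 2 of 10 endothelial markers were called higher, where 16.5% of all genes were. It called 3 of 10 hepatocyte markers lower, where 16.1% of all genes were called lower. With all libraries 0.741% of all tested genes were called higher, and 9.14% were higher and 5.4% lower at an unadjusted p under 0.05. The 10 endothelial markers summed to between 215 and 268 CPM in knockdown livers and between 201 and 268 CPM in control livers, with 0 of 10 called by edgeR, 0 at an unadjusted p under 0.05 and the smallest p for Cdh5 and Pecam1 (edgeR adjusted p = 0.613 and 0.630). Of the 10 hepatocyte markers 0 were called by edgeR and 2 were lower at an unadjusted p under 0.05, the smallest p being those of Cps1 and Ttr (log2 fold changes -0.81 and -0.61, edgeR adjusted p = 0.247 and 0.272). Of 13 acute phase and inflammation genes, 11 were tested and Saa1 was called higher (log2 fold change 2.05, SE 0.32, edgeR adjusted p = 0.0408), while 5 of 12 were called higher without control replicate 1. The part of these markers in the values of the 10 genes was not tested.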

How the data were processed

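Liver RNA of 6 libraries, 3 knockdown and 3 control, was grouped by the sample titles. The authors deposited raw read counts per gene for each library and a table of FPKM values. Per the submitters' processing notes the tools were HISAT2 (version 2.10 as given), Cufflinks (2.2.1), HTSeq, Trim Galore and FastQC, on GRCm38 (mm10), and their order was not given. Counts of lines that name no gene (2.48% to 5.66% outside genes, 4.69% to 6.87% ambiguous) were left out.

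After filterByExpr and TMM scaling, the quasi-likelihood test of edgeR 4.0.16 (R 4.3.3) compared the groups with no covariate, with Benjamini-Hochberg adjustment over all genes. Alternatives were DESeq2 1.42.0, median-ratio size factors, other filters, limma 3.58.1 on log2(FPKM + 1) and log2(FPKM + 0.1), the replicate number as a block, each library left out, and a fit lacking mitochondrial genes and the top 20 by abundance. The edgeR script was tested on simulated data. The 10 genes and 13 other gene lists were chosen with earlier results of these data known. The text names the 10 genes, Atoh8, Xist and Ddx3y, up to 4 called genes of each list with the smallest p (or 2 where none was called), and 5 genes most like Nr1i3 and Cyp2b10. Others are marked as named later. The value of 1 marker gene is not reported here. Libraries of a group differed beyond sampling noise, most of all control replicate 1. Its chi-square per gene was 415 and 432 against control replicates 2 and 3, where the other pairs within a group had 50.2 to 85.5. Promoter windows come from RefSeq (GRCm38.p6) and exons from GENCODE M21.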

Additional observations from a re-analysis of the deposited data

How the results depend on the processing

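All 9 tested genes kept the direction of their log2 fold change under every alternative in which they were tested, 14 each and 13 for Cyp3a11, which was removed with the most abundant genes. Nr1i3 was called in 8 of 14. Counts of calls depended on the setting. DESeq2 called 590 genes higher and 221 lower, 4 of the 10 genes lower, 8 other targets lower, and 1 cofactor higher and 1 lower. With no filter, edgeR called 213 higher and 34 lower, 2 of the 10 genes among them. By limma on log2(FPKM + 1) 27 genes were lower. Leaving out one library gave 0 to 2348 genes higher, 0 to 2284 lower, 0 to 7 of the 10 genes lower, 0 to 16 other targets lower and 0 to 1 higher, and 0 to 2 cofactors higher and 0 to 8 lower, the highest counts all without control replicate 1. The fits with 0 genes called higher and lower, those without knockdown replicate 1, knockdown replicate 3 or control replicate 2, had 1130, 1224 and 1633 genes at an unadjusted p under 0.05 by edgeR. Without knockdown replicate 2, 10 genes were called higher and 0 lower, with 1706 at an unadjusted p under 0.05. The Cyp2b sum was past the threshold by DESeq2 (-1.78, adjusted p = 0.000357), with no filter (-1.72, edgeR adjusted p = 0.0306) and without control replicate 1, and its log2 fold change lay between -1.995 and -1.41 with one library left out. With the replicate number as a block, edgeR called 33 genes higher and 2 lower, 0 of the 10 genes and 1 other target lower, and Nr1i3 missed the threshold (-1.63, edgeR adjusted p = 0.0589). Deviations of same-numbered libraries correlated at 0.25, -0.08 and 0.29 for numbers 1 to 3. Knockdown replicates 1 and 3 correlated best with the control of the same number, and knockdown replicate 2 with control replicate 1. The labels give no batch, and the numbers were not taken as pairs in the main fit. The causes of these shifts were not tested. Fold changes of Cyp2b13 were not estimated under filterByExpr because of its 1 to 32 reads.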
